A study of Mus musculus with 9 samples.

Results

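The replication-dependent histone genes were followed in poly(A)-selected RNA of C2C12, a mouse myoblast cell line whose cells stop dividing and fuse into myotubes in low serum. The genes were taken by name: protein-coding genes whose symbol begins with Hist1h to Hist4h, or carries the equivalent newer symbol. The annotation holds 67 such genes, and 65 of the 47729 genes in the counts table were among them; Hist1h2bm and Hist1h2bh had no row in it. They comprise 6 genes for the linker histone H1 and 18, 16, 12 and 13 genes for the core histones H2A, H2B, H3 and H4. On mouse build GRCm38, 52 lie on chromosome 13, 10 on chromosome 3, 2 on chromosome 11 and 1 on chromosome 6.

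Per the labels, 3 populations were compared. WT was a control given a non-targeting guide RNA, Per1KO had the circadian repressor gene Per1 knocked out with CRISPR-Cas9, and Per2KO had its paralog Per2 knocked out. Sampling was in growth medium with fetal bovine serum (day 0), then 3 and 5 days after the switch to horse serum. A single library was made from each population on each day, 9 in all. Whether a population is a clone or a pool is not given in the sources used here. The labels name whole muscle as tissue, while the protocols describe cultured C2C12 cells.

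Replication-dependent histone mRNAs are the metazoan mRNAs known to end without a poly(A) tail. Their 3′ end is made by a single cut just past a conserved stem-loop, which the stem-loop binding protein (Slbp) and the U7 small nuclear ribonucleoprotein recognise, and the mRNA is made in S phase and degraded when DNA synthesis stops. Oligo-dT selection should therefore lose most of it, and some of these genes are known to give a second, polyadenylated mRNA that ends downstream of the stem-loop, also in cells that have stopped dividing. The counts below are counts of reads that passed oligo-dT selection, not of all histone mRNA.

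The stem-loop was looked for first, since it marks where the tailless mRNA ends. The letters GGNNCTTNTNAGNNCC were searched on the sense strand after the stop codon of the longest annotated coding transcript. They were found in 43 of the 65 genes and in 36 of 21494 other protein-coding genes (0.167%), one of which was H2afx. The first base of the match lay a median of 32 bases after the stop codon, with a range of 21 to 58 bases counted between them. Of the 22 genes without the letters, 13 have no annotated base after the stop codon. The match is shown in capitals with 5 bases on either side, for the 4 stem-loop genes that were tested below, then for 3 genes with a short annotated end, with 24, 114 and 39 counts over all libraries.
Hist1h1c: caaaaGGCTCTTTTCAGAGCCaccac
Hist2h3c2: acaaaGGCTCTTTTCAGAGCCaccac
Hist3h2a: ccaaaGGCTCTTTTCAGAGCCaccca
Hist1h4i: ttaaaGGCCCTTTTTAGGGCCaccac
Hist1h2bj: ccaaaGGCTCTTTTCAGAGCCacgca
Hist1h2bg: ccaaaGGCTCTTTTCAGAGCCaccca
Hist1h3c: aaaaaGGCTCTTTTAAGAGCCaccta
The same 16 letters stood in Hist1h1c, Hist2h3c2, Hist3h2a, Hist1h2bj and Hist1h2bg, and in 23 of the 43 genes. Identical letters thus stood in genes of very different counts. Hist1h1c is annotated 840 bases past its stem-loop, Hist3h2a 1643, Hist2h3c2 377 and Hist1h4i 330 bases, against 23 bases in Hist1h2bj, 74 in Hist1h3c and 155 in Hist1h2bg. Long annotated sequence past the same letters also stood in genes with few or no counts: Hist1h2ac has 2010 bases there and had 7 counts over all libraries, and Hist2h3c1 has 1167 bases and had 0. Hist1h2bc and Hist2h2be, the other 2 tested genes, have no such letters in their annotated ends. Hist2h2be has 2192 annotated bases after its stop codon, and the annotated Hist1h2bc transcript is spliced to a distal exon, so that its gene spans bases 23684199 to 23692908 of chromosome 13.

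The polyadenylation signal AATAAA stood in the last 50 bases of the annotated transcript in 14 of the 65 genes, against 59.7% of the other protein-coding genes. Hist1h1c, Hist3h2a and Hist2h2be were among the 14. An annotated end was called long where at least 300 bases follow the stop codon, a limit placed after the counts were seen, in the gap between 230 and 376 bases where no gene lies. By it 21 genes had a long end, 9 of them with the signal, and 44 a short end, 5 with the signal. The table gives 1 count per gene, so it does not show which part of a transcript the reads came from.

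Sequence shared between the genes limits every single-gene value. The share of a gene's 31-base words that also occur in another gene had a median of 61.9% over the 65 genes and 0.874% over 21632 other protein-coding genes. It was at least 50% in 40 genes, at least 90% in 14 and under 10% in 6, namely Hist1h1a, Hist1h1b, Hist1h1d, Hist1h1t, Hist2h2be and Hist2h4. The treatment of reads that fit more than 1 gene is not given in the sources used here. All 5 genes whose words are entirely shared (Hist2h2aa1, Hist2h2aa2, Hist2h3c1, Hist2h3b and Hist2h2bb) had 0 counts in all 9 libraries, and 9 of the 10 genes at 0 throughout share at least 50%. The 14 genes that share at least 90% had at most 24 counts over all libraries. A count of 0 in such a gene cannot be told apart from reads that were not assigned.

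WT libraries held 5020385 to 6773320 counts and knockout libraries 41997763 to 48051824, and lane suffixes stand in the WT titles only, so depth, batch and genotype cannot be told apart. A floor of 3 counts was 0.424 to 0.660 CPM in WT and 0.0591 to 0.0731 CPM in the knockouts; CPM are counts scaled to a common library size, here by TMM, and sums of genes are given in unscaled CPM, against the library's own total. The mRNA of Per1 was at up to 35.6 CPM in WT, 20.9 to 32.4 in Per1KO and 16.5 to 32.9 in Per2KO, and that of Per2 at 9.75 to 20.5, 6.59 to 10.6 and 3.50 to 9.13 CPM, so the target mRNAs do not separate the knockouts and the names are those of the labels. Of 10 muscle differentiation genes, 8 were called higher on day 5 than on day 0, and the proliferation marker Mki67 was at 215 to 320 CPM on day 0 and 32.8 to 50.3 CPM on day 5. Markers of macrophages, endothelium, fat and epithelium summed to 0.625 to 2.01 unscaled CPM, 8 of the 9 had at most 8 counts in any library, and Adgre1, Adipoq and Epcam were at 0.

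The 65 genes together held 23662 counts in the 9 libraries, and the distribution was steep. Counts over all libraries were 0 in 10 genes, 1 to 9 in 22, 10 to 99 in 24 and at least 100 in 9. Of these 9, 8 had a long annotated end, and the exception was Hist1h2bg with 114 counts. Median totals were 29 counts for long-ended and 8.5 counts for short-ended genes, but the median transcript was 1630 bases in the former and 474.5 in the latter. The median share of words found in other genes was 29.4% in the former and 70.9% in the latter. The part of unassigned reads in the difference between these classes, here and in the sums below, was not tested. Nor was the part of reads past a short annotated end, which a count by annotated gene would leave out. Per length the medians lay close together, with mean levels of 0.0936 and 0.0808 RPKM (CPM per kilobase of exon). What set the long-ended genes apart per length was their top: their highest mean level was 41.7 RPKM and that of the short-ended genes 0.594 RPKM.

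**Figure D1:**
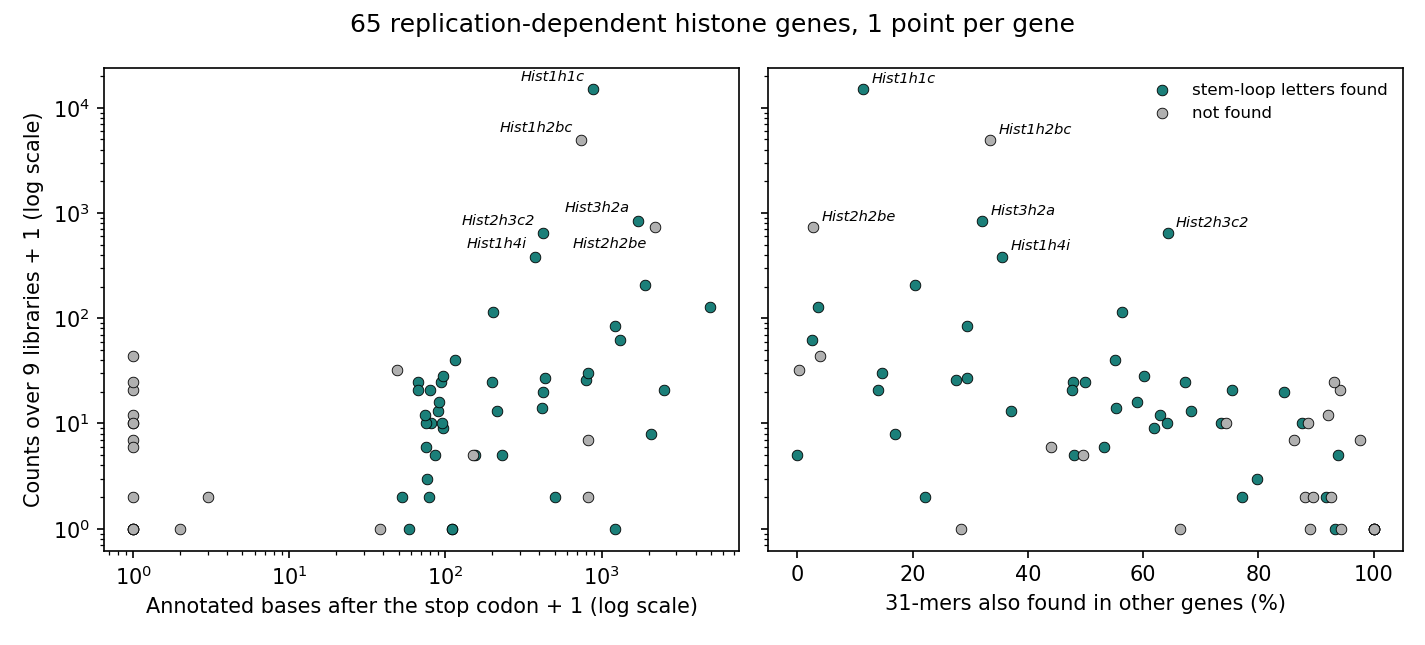
Counts over the 9 libraries plus 1 (log scale) for each of the 65 histone genes, against annotated bases after the stop codon plus 1 (left, log scale) and against the percentage of 31-base words found in other genes (right); colour marks genes with the stem-loop letters. All 6 named genes, with 385 to 14930 counts, have at least 376 annotated bases after the stop codon, and genes sharing at least 90% have at most 24 counts.

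Genes were tested where at least 3 of the 9 libraries had at least 1 CPM, and 6 of the 65 passed: Hist1h1c (ENSMUSG00000036181), Hist1h2bc (ENSMUSG00000018102), Hist2h3c2 (ENSMUSG00000081058), Hist1h4i (ENSMUSG00000060639), Hist3h2a (ENSMUSG00000078851) and Hist2h2be (ENSMUSG00000068854). All 6 have a long annotated end. In 3 of them the level was under 1 CPM on day 0 in both knockouts, so they passed through their later libraries, and no count over these 6 describes the 65. Per length, Hist1h1c was highest in each of the 9 libraries, at 9.15 to 107 RPKM, and Hist1h2bc second, at 4.95 to 32.5 RPKM. The mean levels of the others were 2.02 RPKM for Hist2h3c2, 1.73 for Hist1h4i, 1.18 for Hist3h2a and 0.877 for Hist2h2be, and their order changed between libraries. Together Hist1h1c and Hist1h2bc made up 74.0% to 77.2% of all counts of the 65 genes on day 0 and 83.5% to 94.7% later.

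Hist1h1c and Hist1h2bc rose during differentiation in all 3 populations. Hist1h1c encodes a linker histone H1 that binds where DNA enters and leaves the nucleosome; its annotated transcript lies at chr13:23738808-23740367 on the plus strand, and 11.4% of its 31-base words occur elsewhere. In WT it had 225, 489 and 756 counts on days 0, 3 and 5, which is 31.8 CPM (95% exact Clopper-Pearson interval 27.8 to 36.2), 89.2 (81.5 to 97.5) and 166 (155 to 179). In Per1KO it was at 14.3 (13.2 to 15.4), 61.3 and 77.9 CPM, and in Per2KO at 21.7 (20.5 to 23.1), 52.2 and 71.3 CPM. All 6 later libraries lay above all 3 day 0 libraries, and on each day WT lay above both knockouts. The log2 fold change was 1.61 ± 0.19 (SE) on day 3 against day 0, with an adjusted p-value of 7.44e-04 in edgeR's quasi-likelihood test, and 2.17 ± 0.19 on day 5, with an adjusted p-value of 1.04e-04. More cells of a kind and more RNA per cell cannot be told apart in bulk libraries, here or below.

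Hist1h2bc encodes a core histone H2B, and 33.5% of its words are shared. WT had 6.07 CPM of it on day 0 (4.40 to 8.18), 19.7 CPM on day 3 and 37.6 CPM on day 5 (32.2 to 43.7). The corresponding levels were 5.72, 20.9 and 27.8 CPM in Per1KO and 5.93, 19.3 and 22.7 CPM in Per2KO. The 3 populations had overlapping intervals on days 0 and 3 and were farthest apart on day 5, where WT lay above both knockouts. The log2 fold change was 1.75 ± 0.17 on day 3 (edgeR adjusted p-value 3.45e-04) and 2.26 ± 0.18 on day 5 (5.24e-05).

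Hist2h3c2 (histone H3) had the largest fold change of the 6 and very few counts on day 0. It had 2, 12 and 10 counts in WT, 10, 126 and 177 in Per1KO, and 15, 136 and 153 in Per2KO. Day 0 levels were 0.203 to 0.295 CPM, day 3 levels 2.19 to 2.81 and day 5 levels 2.20 to 4.25, with no overlap between day 0 and later. Its log2 fold change was 3.40 ± 0.30 on day 3 (edgeR adjusted p-value 2.17e-04) and 3.86 ± 0.30 on day 5 (5.05e-05). Its count is uncertain because 64.2% of its words occur in the gene model Gm20634.

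Hist2h2be, a further H2B gene, shares 2.82% of its words, the lowest share of the 6. Per1KO had 0.649 (0.444 to 0.916), 3.06 and 4.97 (4.32 to 5.70) CPM of it on days 0, 3 and 5, and Per2KO 0.689, 2.67 and 3.85 CPM. In WT it had 10, 10 and 7 counts, which is 1.41 CPM (0.677 to 2.60), 1.82 and 1.54 CPM (0.619 to 3.17). The knockout levels were below WT on day 0 and above it later, while the WT intervals overlapped throughout. On days 0 and 3 the WT interval also overlapped those of both knockouts. On day 5 the WT interval, on 7 counts, ended at 3.17 CPM. Those of Per1KO and Per2KO began at 4.32 and 3.27 CPM. Over the 3 populations its log2 fold change was 1.78 ± 0.42 on day 3 (edgeR adjusted p-value 0.0145) and 2.28 ± 0.42 on day 5 (0.00325). Without Per1KO these became 1.31 (adjusted p-value 0.252) and 1.63 (0.122), and without Per2KO 1.51 (0.208) and 1.96 (0.0815).

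Hist3h2a (histone H2A) and Hist1h4i (histone H4) behaved less uniformly. Hist3h2a was at 0.706, 3.65 and 0.660 CPM in WT on 5, 20 and 3 counts, at 1.28, 3.77 and 3.46 CPM in Per1KO and at 2.11, 3.70 and 3.39 CPM in Per2KO. The WT library of day 5 lay below all day 0 libraries, and the other 5 later libraries lay above them. Its log2 fold change was 1.39 ± 0.37 on day 3 (edgeR adjusted p-value 0.0234; 0.188 without Per1KO and 0.0784 without Per2KO) and 0.94 ± 0.37 on day 5 (0.0686; 0.0102 without WT). It overlaps Trim17 on the same strand and shares 32.1% of its words with it, so its reads may belong to either. Hist1h4i was at 1.41, 1.28 and 0.660 CPM in WT on 10, 7 and 3 counts, at 0.568, 2.34 and 1.71 CPM in Per1KO and at 0.630, 1.26 and 1.46 CPM in Per2KO, so the day groups overlapped. Its log2 fold changes of 1.22 (adjusted p-value 0.0629) and 1.00 (0.0969) did not pass, and both passed without WT, at 1.54 (0.00638) and 1.38 (0.00903).

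**Figure D2:**
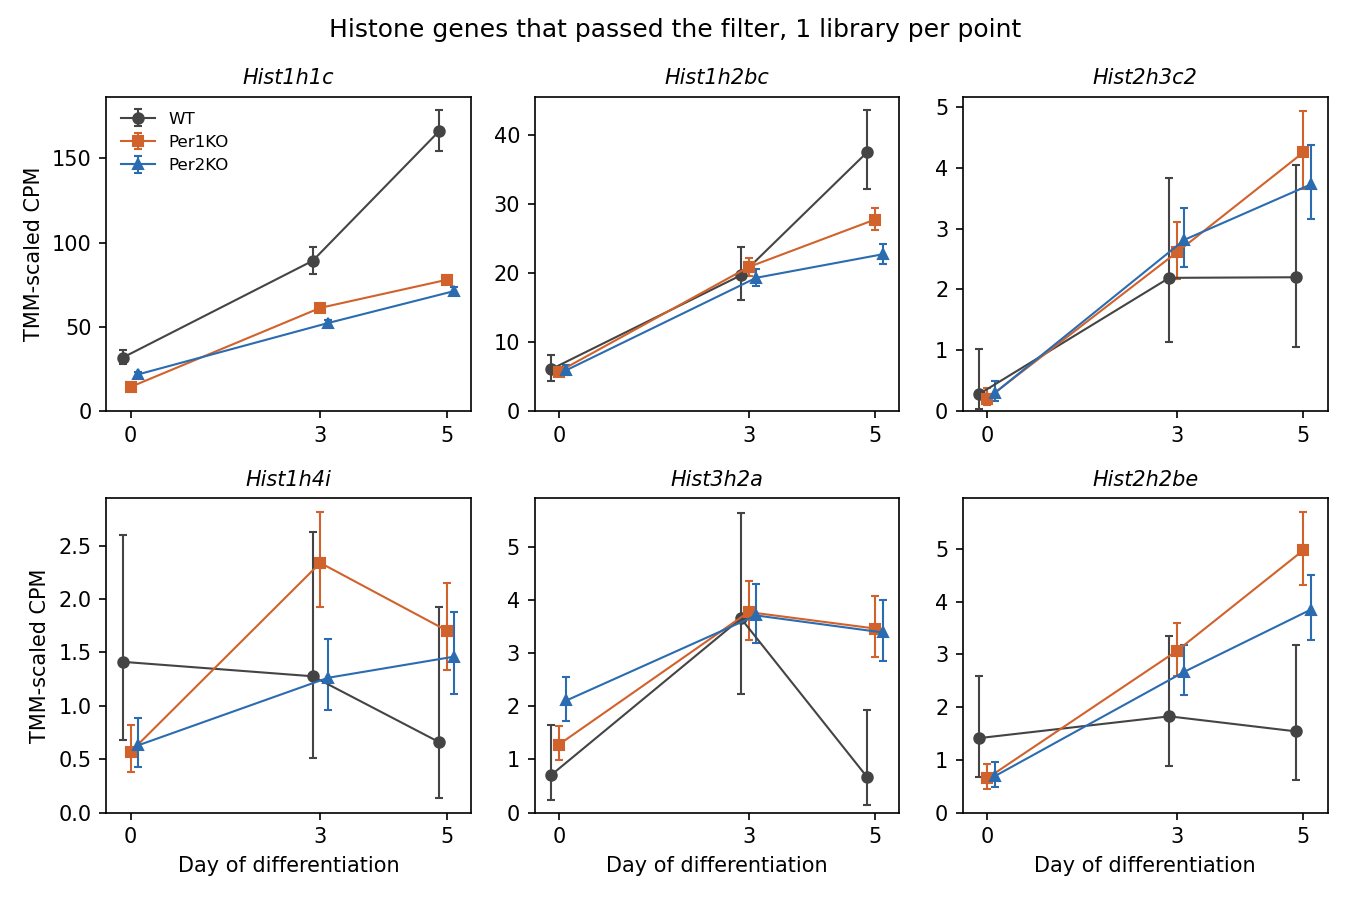
TMM-scaled CPM of the 6 tested histone genes by day of differentiation, 1 point per library with its 95% exact counting interval. Hist1h1c in WT reaches 166 CPM on day 5 against 77.9 and 71.3 CPM in the knockouts, and Hist2h2be stays between 1.41 and 1.82 CPM in WT while both knockouts climb from under 1 CPM.

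Day 3 against day 0 thus gave 5 of the 6 tested genes higher and 0 lower, where 18.1% of all 13324 genes tested were called higher. Day 5 against day 0 gave 4 of 6 higher and 0 lower, against 23.2% of all genes. These counts describe the 6 only, since Hist2h3c2, Hist2h2be and Hist1h4i passed the limit through the later libraries in which they are high. Between day 3 and day 5, 0 of the 6 were called by edgeR or by DESeq2, with 1.79% of all genes called by edgeR; 2 had an unadjusted p under 0.05, Hist1h1c with a log2 fold change of 0.56 ± 0.19 (adjusted p-value 0.212) and Hist1h2bc with 0.51 ± 0.16 (0.204). In these comparisons the 3 populations stand in for replicates of a day.

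The other 59 genes were under the limit for testing, and 49 of them had a count. Going by the sign of the unscaled CPM difference alone, 19 of the 59 were lower on day 5 than on day 0 in all 3 populations and 4 were higher (Hist1h2be, Hist1h2bg, Hist1h4h and Hist2h4). Among the 12552 other genes under the limit with 1 to 208 counts, the range of these 49, 8.4% were lower and 8.75% higher by the same rule. On day 3, 13 of the 59 were lower and 4 higher, against 8.06% and 6.82% of those genes. The 59 include 10 genes with 0 counts, which can be neither lower nor higher, while each of the 12552 had a count. The match was by the range of counts only, not by their spread within it. The limit had already set apart 3 genes that passed through their later libraries, and many WT values are 0 to 3 counts, so the signs are a description. Hist1h2bj, an H2B gene, had 6, 10 and 6 counts on day 0 in WT, Per1KO and Per2KO, then 2 counts in WT on day 3 and 0 in the other 5 later libraries. Hist1h1b, a linker histone gene that shares 3.93% of its words, had 4, 11 and 9 counts on day 0 and 1, 4 and 1 on day 5. Hist1h1e, also a linker histone gene, showed no common direction, with 3, 13 and 19 counts on day 0 and 4, 13 and 10 on day 5.

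Hist1h2bg is the short-ended gene with most counts. It had 2, 1 and 2 counts in WT, 8, 22 and 18 in Per1KO and 11, 23 and 27 in Per2KO on days 0, 3 and 5. When all genes with a count were fitted with no limit on low counts, 55 of the 65 were tested and the calls ran both ways. Day 5 against day 0 then gave 6 higher and 4 lower, where 24.8% of 26159 genes were called in either direction. Beside the 4 genes above, the higher ones were Hist1h2be, with a log2 fold change of 1.61 ± 0.45 (adjusted p-value 0.0158), and Hist1h2bg, with 1.38 ± 0.47 (0.0458). Hist1h2be overlaps the linker histone gene Hist1h1e on the same strand, which makes both counts uncertain. The 4 lower ones, named here after their values were seen, were Hist1h2bj, Hist1h3c, Hist1h4d and Hist1h4j, with 24 to 39 counts each over all libraries. Hist1h3c had 3, 14 and 14 counts on day 0, then 0, 1 and 3 counts on day 5. On day 3 the same fit gave 6 higher and 2 lower, against 17.8% of all genes.

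Counts were also summed by annotated end, which the calls of single genes followed only in part. In the fit with no limit on low counts, Hist1h4d and Hist1h4j were called lower and have a long end. Hist1h2bg was called higher and has a short one. The 21 long-ended genes together had 46.4 unscaled CPM (41.4 to 51.8) in WT on day 0, 115 on day 3 and 193 (181 to 206) on day 5. In Per1KO they had 26.4, 96.5 and 119 and in Per2KO 35.7, 84.6 and 106 unscaled CPM. The 44 short-ended genes had 5.46 (3.85 to 7.53), 1.91 and 1.99 (0.955 to 3.66) unscaled CPM in WT, 2.47, 1.46 and 0.996 in Per1KO and 2.93 and 1.58 on days 0 and 3 in Per2KO, where 63 counts remained on day 5. Day 5 divided by day 0 was 4.16 in WT (95% exact conditional interval 3.66 to 4.74), 4.49 in Per1KO and 2.96 in Per2KO for the long-ended sum. For the short-ended sum it was 0.365 (0.162 to 0.748), 0.403 (0.277 to 0.578) and 0.513 (0.374 to 0.695). Counting error is all these intervals cover, because the reads carry no molecular identifiers and need not come from different molecules. The long-ended share of all counts of the 65 genes was 89.5% to 92.4% on day 0 and 98.2% to 99.2% later.

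The 15 long-ended genes under the limit for testing had a sum of 2.81 (1.69 to 4.38), 3.29 and 3.78 (2.28 to 5.91) unscaled CPM in WT, 2.16, 1.98 and 2.73 in Per1KO and 1.87, 2.16 and 1.55 in Per2KO. Day 0 and day 5 intervals overlapped in each population, so no direction was detectable at this depth. The limit is reached more easily by genes that are high on later days, so this split is a description. The tested genes held 84.0%, 83.9% and 87.6% of all counts of the 65 genes on day 0 and 95.6% to 97.2% later.

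**Figure D3:**
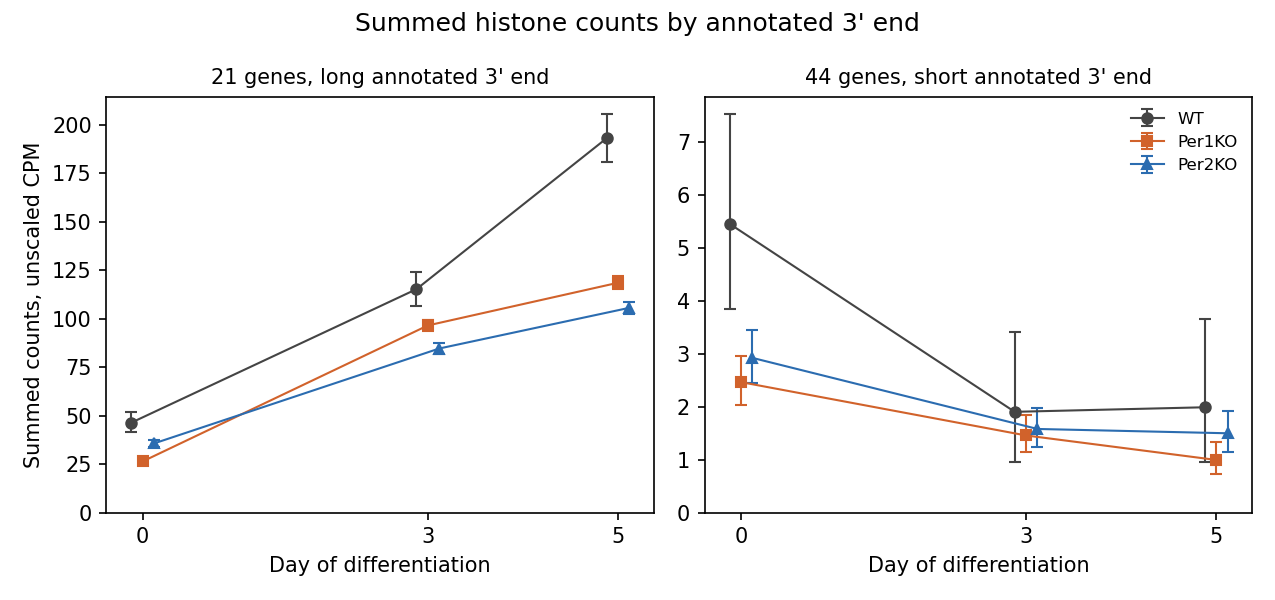
Summed counts in unscaled CPM for the 21 genes with a long annotated 3′ end (left) and the 44 with a short one (right), 1 point per library with its 95% exact counting interval. The long-ended sum in WT goes from 46.4 to 193 between day 0 and day 5, and the short-ended sum from 5.46 to 1.99; the axes differ in scale.

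By histone type, H1 and H2B carried nearly all of the sum. H1 went from 34.8 to 152 unscaled CPM between day 0 and day 5 in WT, from 16.4 to 76.0 in Per1KO and from 24.7 to 70.2 in Per2KO, and Hist1h1c was the bulk of it. H2B went from 9.89 to 38.0, from 7.90 to 33.5 and from 8.48 to 27.7. H3 was at 1.21 to 1.92 on day 0 and 2.19 to 4.45 on day 5, and Hist2h3c2 was the bulk of it on day 5 only. In WT, Per1KO and Per2KO that gene held 2 of 13, 10 of 56 and 15 of 74 H3 counts on day 0. On day 5 it held 10 of 11, 177 of 192 and 153 of 167. H2A was at 1.82 to 2.71 on day 0 and 0.797 to 3.55 on day 5, and H4 at 1.15 to 3.25 and 1.59 to 2.13, both with no common direction. The core histones enter the nucleosome in equal number, and their counts in poly(A) RNA were unequal. These sums are not scaled to length and are limited by shared sequence, so they do not measure amounts of protein.

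Most H2A and H2B genes sit head to head, with start sites of a pair close together on opposite strands. There were 12 such pairs among the 65 genes with starts at most 500 bases apart, and each joined an H2A to an H2B gene. The H2B partner had more counts in 9 pairs and the H2A partner in 3. Several pairs had few counts in both partners, with 9 in Hist1h2bl and 11 in Hist1h2ai, or 6 in Hist1h2bq and 4 in Hist1h2ao. These genes share 88.6% to 97.6% of their words. The tally is a description, and the part of unassigned reads in it was not tested. The gap was widest for Hist1h2bc, with 4939 counts over all libraries, and Hist1h2ac, with 7, whose starts are 251 bases apart. Hist2h2be had 736 counts and its partner Hist2h2ac 9. Hist1h2ac also has a long annotated end, of 2058 bases after the stop codon, and shares 16.9% of its words.

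The sequence upstream of the 2 leading genes is shown, since they hold most of the counts and rise together. It is taken from RefSeq on GRCm38.p6, 250 bases before the start site; 62 of the 67 annotated genes had an entry, Hist1h2bc had none, and the window of Hist1h2ac, which covers the gap between that pair and reads toward Hist1h2ac, stands for both. Capitals mark 3 motifs on either strand, and no marked match overlaps another. TATAAA is the TATA box. The octamer ATTTGCAT is known as a site of Pou2f1. CCAAT is the CCAAT box.
Hist1h2ac (chr13:23683960-23684209, minus strand): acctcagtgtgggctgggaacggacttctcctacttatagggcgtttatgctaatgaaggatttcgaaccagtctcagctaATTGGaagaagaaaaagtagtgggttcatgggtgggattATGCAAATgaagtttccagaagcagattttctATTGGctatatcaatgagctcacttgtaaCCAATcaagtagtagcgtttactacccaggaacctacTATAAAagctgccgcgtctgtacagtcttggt
Hist1h1c (chr13:23738557-23738806, plus strand): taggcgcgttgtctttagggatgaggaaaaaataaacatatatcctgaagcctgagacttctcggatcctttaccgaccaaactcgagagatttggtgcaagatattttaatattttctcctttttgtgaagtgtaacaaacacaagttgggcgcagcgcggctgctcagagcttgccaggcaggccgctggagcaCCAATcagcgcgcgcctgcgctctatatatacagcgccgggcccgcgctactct
The window shared by the Hist1h2ac and Hist1h2bc pair holds all 3 motifs, and that of Hist1h1c holds CCAAT only. In the shared window TATAAA reads toward Hist1h2ac and lies at the Hist1h2ac end, not at the Hist1h2bc end. The octamer occurred in 7 of 18 H2A and 6 of 16 H2B windows and in 0 of the 6 H1, 10 H3 and 12 H4 windows; it stood in 1.60% of all 32851 RefSeq promoters of this length. TATAAA stood in 46.8% of the histone windows against 12.4% of all, and CCAAT in 82.3% against 33.8%. A match of letters is not a measured binding site.

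The libraries labelled Per1KO and Per2KO differed from WT in 1 of the 6 tested genes, Hist1h1c. It was lower in Per1KO, with a log2 fold change of -0.92 ± 0.19 and an edgeR adjusted p-value of 0.0131, where 10.1% of all genes were called lower. It was lower in Per2KO too, with -0.85 ± 0.19 and an adjusted p-value of 0.0183, where 10.6% of all genes were called lower; both comparisons use the same WT libraries. Day by day the log2 difference from WT was -1.15, -0.54 and -1.09 in Per1KO and -0.55, -0.77 and -1.22 in Per2KO, so WT was higher on 3 of 3 days. Both calls held without day 0, at -0.84 (adjusted p-value 0.0228) in Per1KO and -1.02 (0.0122) in Per2KO. Without day 3 the values were -1.13 (edgeR adjusted p-value 0.0533) and -0.89 (0.0929), and without day 5 they were -0.83 (0.137) and -0.66 (0.204). Both calls were thus lost when day 3 or day 5 was left out, while the sign was kept. Depth separates WT from the knockouts in the same way, and its part in the result was not tested.

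The other 5 tested genes did not pass in either comparison. Hist1h2bc had log2 fold changes of -0.17 ± 0.17 in Per1KO (edgeR adjusted p-value 0.525) and -0.28 ± 0.17 in Per2KO (0.282). The summed counts were also compared with and without Hist1h1c. On day 5, all 65 genes stood at 195 unscaled CPM in WT (183 to 208), 120 in Per1KO and 107 in Per2KO, a knockout to WT ratio of 0.613 (0.572 to 0.657) and 0.549 (0.512 to 0.589). Without Hist1h1c the levels were 44.4, 44.4 and 37.4 unscaled CPM, and the ratios 0.999 (0.870 to 1.15) and 0.843 (0.732 to 0.974). On day 0 the ratio went from 0.557 to 0.732 (0.604 to 0.894) in Per1KO and from 0.745 to 0.816 (0.675 to 0.994) in Per2KO when Hist1h1c was left out, and on day 3 from 0.837 to 1.12 and from 0.736 to 1.04. Without this gene, 3 of the 6 ratios thus still had an interval below 1. Hist1h1c had 5.23, 4.53 and 4.42 counts for each count of Hist1h2bc in WT on days 0, 3 and 5, and 2.50 to 3.67 in the 6 knockout libraries. Between Per1KO and Per2KO 0 of the 6 genes and 0% of all genes were called by edgeR, 0 of the 6 had an unadjusted p under 0.05, and DESeq2 called 0 of the 6.

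Whether the knockouts responded differently to differentiation was tested as an interaction of knockout with day 0 against the later days. Of the 6 genes 0 were called by edgeR, with 4.95% of all genes called, and 2 had an unadjusted p under 0.05. Hist2h2be had a log2 difference in response of 2.13 ± 0.60 (p-value 0.00909 in edgeR, adjusted 0.0910) and Hist1h4i one of 1.98 ± 0.76 (0.0344, adjusted 0.174), both larger in the knockouts. Hist1h1c had -0.09 ± 0.36, so its lower level in the knockouts came with no detected difference in its response. For Hist2h2be and Hist1h4i the WT side of the difference rests on 3 to 10 counts in each library.

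Genes for the factors that make and cut these mRNAs were next read from the same fit. Of 18 tested genes for histone mRNA 3′ end formation and histone gene transcription, 11 were called lower and 0 higher on day 5 than on day 0, where 22.9% of all genes were called lower; the median log2 fold change was -0.46. Slbp, which binds the stem-loop printed above, was at 31.9 CPM in WT, 57.2 in Per1KO and 38.7 in Per2KO on day 0, at 19.7, 21.1 and 24.1 CPM on day 3, and at no more than 16.3 CPM on day 5 in any of them. It fell, with a log2 fold change of -1.51 ± 0.18 and an edgeR adjusted p-value of 4.33e-04. Cstf2, a subunit of the cleavage stimulation factor, had -1.35 ± 0.20, and Npat, the coactivator of histone genes in S phase, -0.36 ± 0.12. Lsm11, a U7-specific protein, had -0.41 ± 0.18 and did not pass (adjusted p-value 0.0876), nor did Lsm10.

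Of 10 genes for histone mRNA decay, 2 were called lower and 2 higher. Eri1, the exonuclease that trims the stem-loop, fell by 0.76 on the log2 scale and Exosc10 by 0.60, while Dis3l2 had 0.63 and the uridylyltransferase Tut7 0.45. Among 30 S-phase genes, 29 were called lower and 1 higher, with a median log2 fold change of -2.31. The exception was the kinase Cdk2, at 0.66 ± 0.18. The 4 histone genes called higher had the opposite sign to 29 of these 30 genes in the same libraries. They were picked by that call, and Hist2h3c2 and Hist2h2be passed the limit through later libraries in which they are high. Of the 59 histone genes under the limit, 19 were lower and 4 higher on day 5 in all 3 populations.

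The replication-independent histone genes, whose mRNAs are polyadenylated as a rule, did not rise as a group. Of 11, 8 were called lower and 1 higher on day 5 than on day 0, with a median log2 fold change of -1.18. H1f0, a linker histone known to accumulate in resting cells, was at 716, 485 and 379 CPM in WT, 334, 232 and 205 in Per1KO and 526, 219 and 199 in Per2KO. Its log2 fold change was -1.02 ± 0.17 (edgeR adjusted p-value 0.00224), opposite in sign to that of Hist1h1c. H2afx, which is known to give both a stem-loop and a polyadenylated mRNA, was at 51.2 to 58.0 CPM on day 0 and 13.4 to 17.1 CPM on day 5, with a log2 fold change of -1.81 ± 0.12 (2.93e-05). The gene called higher was H3f3a, at 0.57 ± 0.15 (0.0175), whose paralog H3f3b was called lower at -1.18 ± 0.12.

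**Figure D4:**
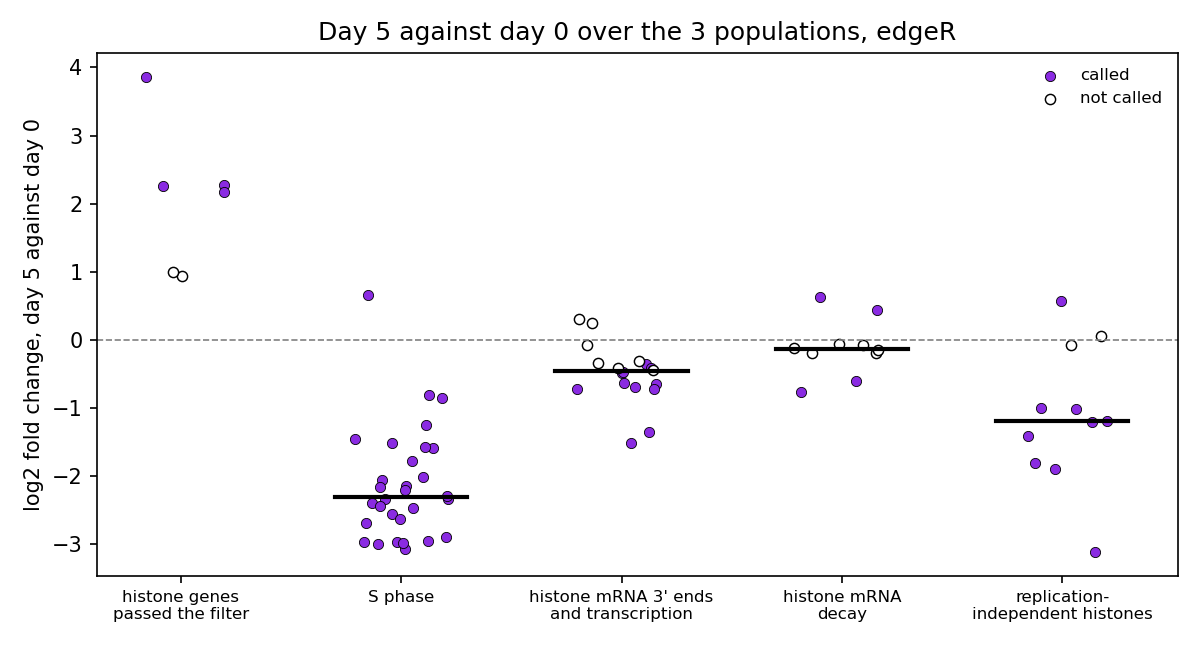
Log2 fold change of day 5 against day 0 for the 6 tested histone genes and for tested genes of 4 lists, 1 point per gene, with filled points for an edgeR adjusted p under 0.05 and bars at the medians of the 4 lists. The 6 histone genes lie between 0.94 and 3.86. They are those that passed the limit for testing, 3 of them through later libraries, and do not describe the 65. The medians are -2.31 for the S-phase genes, -0.46 for the 3′ end and transcription genes and -1.18 for the replication-independent histones.

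In the comparisons with WT, H1f0 was lower like Hist1h1c, with log2 fold changes of -1.01 ± 0.17 in Per1KO (edgeR adjusted p-value 0.00603) and -0.83 ± 0.17 in Per2KO (0.0135). In all, 4 of the 11 replication-independent genes were called lower and 0 higher in each knockout, the others being H3f3a, H2afy2 and H2afz; H2afz shares 63.3% of its words, so its count is uncertain. Of the 3′ end and transcription list 0 were called in either knockout by edgeR, Slbp having 0.42 ± 0.18 (adjusted p-value 0.149) and 0.31 ± 0.18 (0.265). Of the 30 S-phase genes 4 and 3 were called higher and 0 lower.

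Other RNAs that lack a poly(A) tail were read as a measure of how much tailless RNA came through the selection. The annotated small nuclear RNAs summed to 1.77, 2.60 and 3.59 unscaled CPM in WT on days 0, 3 and 5, to 4.33, 3.90 and 3.66 in Per1KO and to 4.86, 4.31 and 4.19 in Per2KO. Small nucleolar and Cajal body RNAs summed to 12.3 to 20.1 in WT and 16.4 to 37.1 in the knockouts, highest on day 0 in each population. Both classes were higher in the knockouts than in WT on day 0, where the short-ended histone sum was lower in the knockouts than in WT. That histone sum was also lower in the knockouts on days 3 and 5. WT then had only 11 and 10 counts, and the intervals overlapped. Day 5 divided by day 0 was 0.942 (0.717 to 1.23) in WT, 0.442 (0.404 to 0.483) in Per1KO and 0.588 (0.536 to 0.645) in Per2KO for the small nucleolar and Cajal body RNAs, against 0.365, 0.403 and 0.513 for the short-ended histone sum. For the small nuclear RNAs it was 2.02 (0.922 to 4.61), 0.845 (0.682 to 1.05) and 0.863 (0.705 to 1.06), so all 3 intervals included 1. The 2 mitochondrial ribosomal RNAs were counted here as tailless too, and whether they carry a short tail was not checked. They were higher on day 5 than on day 0 in each population. They went from 233 to 507 unscaled CPM in WT, from 503 to 626 in Per1KO and from 437 to 639 in Per2KO. A list of 8 further tailless RNAs went from 2.66 to 3.59, from 2.86 to 3.27 and from 5.00 to 3.29. With or without the mitochondrial RNAs, these RNAs thus had no common direction. The part of carry-over of tailless RNA in the histone values was not tested.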

How the data were processed

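Poly(A)-selected RNA of 9 C2C12 libraries, 1 per population and day, was sequenced as single reads, per the labels' protocols. The authors deposited raw read counts, whole numbers for each Ensembl gene. Per the submitters' processing notes, CASAVA 1.8 and HISAT2 2.1.0 and build mm10 were used; the counting program, its annotation, the use of strand and the treatment of reads matching several genes are not given in the sources used here. All 9 value columns matched 1 sample each.

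Symbols, positions and transcripts came from GENCODE M21 (GRCm38), which matched 47310 of 47729 genes; the other 419 held at most 0.0174% of a library. Counts were fitted with edgeR 4.0.16 (quasi-likelihood test, robust, TMM scaling; limma 3.58.1, R 4.3.3) in an additive model of population and day over all 9 libraries, for the 13324 genes that reached 1 CPM in 3 or more libraries. Calls are at a Benjamini-Hochberg adjusted p under 0.05 over all of them; residual degrees of freedom were 4, and 3 with the interaction. Nothing in the labels names separate cultures, so p-values speak of the spread between these populations and days only. Single-library log2 differences used a prior count of 2. Levels compared between genes are RPKM over the union of exons. Shares have 95% exact Clopper-Pearson intervals. The fit was tested on simulated data. Alternatives were DESeq2 1.42.0, other scalings and filters, and leaving out each population or day.

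The members and lists were chosen with earlier results of these data known. Genes named were tested members under 10% shared, the 10 members highest in mean RPKM, and the 3 largest called rises and falls per comparison with the same sign in all pairs; other genes are named by position, overlap or list. Symplk was not matched.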

Additional observations from a re-analysis of the deposited data

How the results depend on the processing

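Single-gene values were recomputed 384 times under other settings: 371 were counted as the same, 10 lost the call and 3 gained one. In 0 cases did the sign change with a call on either side. A change of sign between fitted values that were both not called was counted as the same. Counts of called members and sums were recomputed 75 times, and 59 stayed within 1.5 times or within counting error. With no limit on low counts, 8 of 55 members were called on day 3 (6 higher, 2 lower) and 10 on day 5 (6 higher, 4 lower); with at least 1 CPM in all 9 libraries only 2 members could be tested, and 2 were called on day 3 and 2 on day 5. Leaving out 1 population at a time gave 3 to 6 members on day 3 and 3 to 6 on day 5. Leaving out 1 day at a time gave 0 to 1 for each knockout against WT. DESeq2, size factors by RLE, scaling over protein-coding genes that share little sequence, and fitting only the 6 libraries compared gave counts within 1.5 times of those reported. The day 5 to day 0 ratio of the summed members, 3.76 in WT, 4.14 in Per1KO and 2.78 in Per2KO, was 2.39, 3.26 and 2.47 without Hist1h1c, and 1.12, 3.39 and 2.47 over the 6 members that share under 10%, of which WT had 18 counts on day 0 and 15 on day 5. Summing families of similar genes over the whole table was not run, because single linkage joined the H2B genes into a family of 445 genes; families among the members only, an alternative added after the data were seen, changed no count. The labels give no replicate numbers, so there was no replicate block to fit; the additive model compares days within populations and populations within days. Depth limits WT most, where a tested member other than Hist1h1c and Hist1h2bc had 2 to 20 counts in a library.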
